A study of Mus musculus with 2 samples.

Results

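The genes described here encode the receptors for colony-stimulating factors (Csf1r, Csf2ra and Csf2rb), the ligand of the first of them (Csf1), and proteins that are commonly used to identify macrophages (Adgre1, Cd14, Lyz1, Lyz2, Aif1 and Mpeg1). They were chosen by name, with earlier results of these data known. A probe belonged to one of them when the transcript accession printed for it in the scanner files is a RefSeq transcript of that gene, which gave 17 probes for 10 genes out of 27229 named probes for 20656 genes. The samples were bone marrow-derived macrophages (BMDMs), that is, marrow cells grown in recombinant M-CSF, the protein encoded by Csf1, which takes the precursors to macrophages. The marrow donors were male mice at 8 weeks of age with the Crif1 f/f genotype, in which the Crif1 gene is flanked by recombination sites. The description of the array experiment names no Cre for these mice, and both groups had the same genotype. RNA of untreated BMDMs, whose sample title also gives 18 h, and RNA of BMDMs given IL-4 for 18 h were labelled with Cy3. Each was hybridised to 1 array, so no difference between the groups has a replicate behind it and no p-value is given. Neither the dose of IL-4 used for the arrays nor the presence of M-CSF during those hours is given in the sources used here.

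CSF1R is a receptor tyrosine kinase on the surface of monocytes and macrophages, and the survival and differentiation of most macrophages depend on its signal. The GM-CSF receptor is built from an α chain, encoded by Csf2ra, that binds GM-CSF, and a β chain, encoded by Csf2rb, that carries the signal through JAK2 and STAT5 and is shared with the receptors for IL-3 and IL-5. IL-4 is a cytokine of type 2 immunity that moves macrophages toward the alternatively activated (M2-like) state.

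Each value below starts from the intensity of a spot after the scanner software had subtracted the background. After scaling, a level is the log2 intensity of a probe minus the 75th percentile of its array, and a difference is the level in IL-4-treated BMDMs minus the level in untreated BMDMs. Where a gene had more than 1 probe, the brightest, called probe 1, stands for it. Each of the 17 probes was well above background on both arrays by the software's own flag, without saturated spots and without spots marked as outliers. The software's own error model put 10% on each intensity, which comes to 0.20 on a log2 difference. For probes of similar brightness printed in 10 spots, the SD of the log2 difference between spots had a median between 0.039 and 0.058, although only 2 or 3 such probes were as bright as probe 1 of Csf1r, Csf2ra, Lyz2 and Mpeg1. Neither error covers the spread between cultures.

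Among the 10 genes, Csf2rb passed 2-fold upward after IL-4 and Cd14 passed it downward, while the other 8 lay within 2-fold of the untreated level. Csf1 came close to that limit at its brightest probe, and Lyz2 was the next lowest after Cd14. Of the 12744 genes measured on both arrays, 2.31% passed 2-fold upward and 1.44% downward, and with 10 genes a count of 1 in a direction is the smallest above 0, so nothing is read from these counts. The median log2 difference of the 10 genes was -0.06, with a range from -1.42 to 1.09, and the median over all genes measured on both arrays was -0.01. The differences of Csf1r, Csf2ra, Adgre1 and Lyz1 were smaller than the software's error, and those of the other 6 genes were larger. Scaling each array on its median in place of the 75th percentile moved the median of all genes to 0.20, and scaling on the spike-in controls moved it to 0.30, so small differences depend on that choice.

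**Figure D1:**
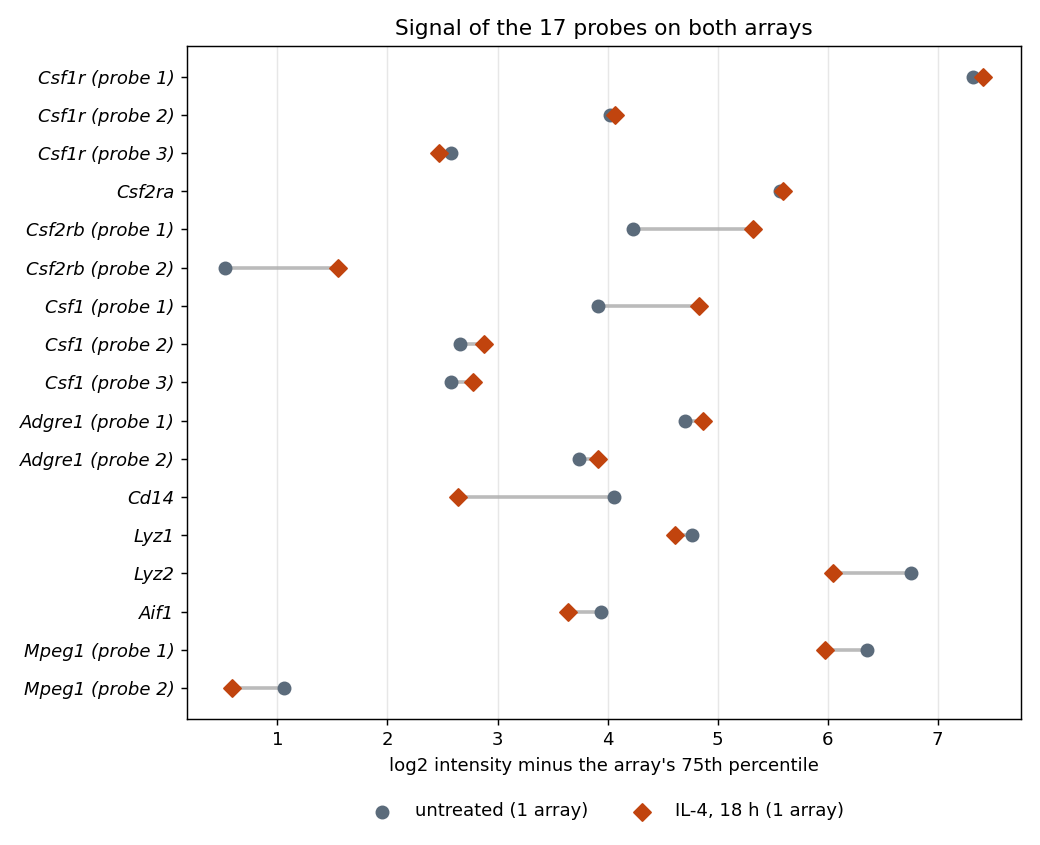
Level of each of the 17 probes on the untreated array (circles) and on the IL-4 array (diamonds), as log2 intensity minus the 75th percentile of the array, with a line joining the values of a probe. Both probes of Csf2rb lie to the right after IL-4, Cd14 lies to the left by 1.42, and the symbols of Csf1r and Csf2ra nearly coincide. Positions of different probes are not comparable with each other.

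The receptors for M-CSF and GM-CSF were read first. Probe 1 of Csf1r had an intensity of 146026 in untreated BMDMs and 166510 after IL-4, and its scaled level went from 7.32 to 7.41. The intensity of probe 2 was 14838 and 16472, and that of probe 3 was 5466 and 5410. After scaling, the log2 differences were 0.09, 0.05 and -0.11, so the 3 probes lay on both sides of 0 and each was within the software's error. Over the 12 ways of processing that were run, one of which took the median over the probes in place of probe 1, the value of Csf1r stayed between 0.025 and 0.40.

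Csf2ra, the GM-CSF-binding chain, was read by 1 probe with an intensity of 43295 in untreated BMDMs and 47507 after IL-4. Its log2 difference was 0.03, and it turned to -0.04 with quantile normalization, -0.02 with cyclic loess and -0.02 when the percentile was restricted to probes that both arrays had flagged well above background.

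Csf2rb, the signalling chain, had a larger difference than Csf1r and Csf2ra. Probe 1 went from 17176 to 39150, a 2.13-fold higher scaled signal, with a log2 difference of 1.09 and a spot SD of 0.043. Probe 2, which was much dimmer, went from 1316 to 2868, a 2.03-fold higher signal with a log2 difference of 1.02. Both probes were thus past 2-fold, and 254 of the 12744 genes measured on both arrays, or 1.99%, had a difference at least as high as that of probe 1. The call was at its limit with quantile normalization, where the log2 difference fell to 0.9998, and it was past 2-fold in the other 11 of 12 settings. The difference of Csf2rb exceeded that of Csf2ra by 1.05, with a spot SD of 0.058 and a software error of 0.29 on this gap, which no constant scaling of an array can move.

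Csf2rb has a near copy, Csf2rb2, which encodes a β chain specific for IL-3 and is the neighbouring protein-coding gene in the RefSeq annotation. The sequences of the probes are not in the files, so a signal shared between the copies was not tested. The brighter probe of Csf2rb2 went from 22074 to 34400, with a log2 difference of 0.54, and the dimmer probe from 4739 to 9070, with a difference of 0.84. Both were higher after IL-4 and below 2-fold. The brighter probes of the pair differed in response by 0.55, which is larger than the software error of 0.29 on that gap, but the dimmer probes differed by 0.19, which is not.

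The ligand gene Csf1 was measured by 3 probes that gave different answers. Probe 1, assigned in the files to the transcript NM_007778, was printed in 10 spots. Its intensity ranged from 13285 to 14375 in untreated BMDMs, with a median of 13690, and from 26056 to 29738 after IL-4, with a median of 27810. The spots of the arrays did not overlap. The log2 difference was 0.92, a 1.90-fold higher signal, with an SD of 0.043 over the 10 spots and single spots between 0.87 and 0.99.

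Probes 2 and 3 of Csf1, which are assigned to the transcript NM_001113530, showed a much smaller difference. Probe 2 went from 5796 to 7192 and probe 3 from 5457 to 6705. Their log2 differences were 0.21 and 0.20, or 1.16-fold and 1.15-fold. The difference of probe 2 was barely larger than the software's error, and that of probe 3 was smaller. The response of probe 1 exceeded that of probe 2 by 0.71 and that of probe 3 by 0.73, with a software error of 0.29 on each gap. The value given for Csf1 therefore depends on the probe. It was 0.21 when the median over the 3 probes was taken, and between 0.81 and 1.23 in the settings that kept probe 1, with 3 of 12 settings past 2-fold. At probe 1, 2.69% of the genes measured on both arrays had a difference at least as high.

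**Figure D2:**
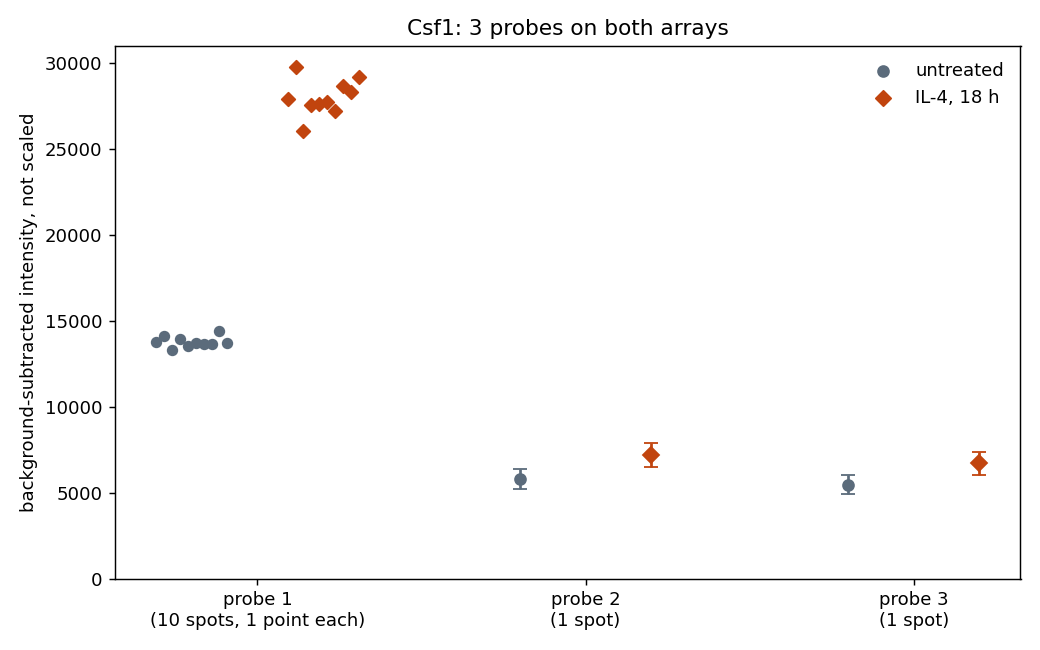
Background-subtracted intensity of the 3 probes for Csf1 on the untreated array (circles) and on the IL-4 array (diamonds). For probe 1 each of the 10 spots is a point, spread sideways for legibility, and for probes 2 and 3 the bars are the software's error of 10%. The IL-4 spots of probe 1 start at 26056 and the untreated ones end at 14375, while probes 2 and 3 lie between 5457 and 7192.

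Adgre1 and Cd14 encode proteins of the macrophage surface. Adgre1 encodes F4/80, an adhesion G protein-coupled receptor by which mouse macrophages are recognised and by which, with CD11b, the purity of these cultures was checked in the study. Its probe 1 went from 23816 to 28655 and probe 2 from 12240 to 14800. The log2 differences were 0.17 at both probes, with a gap of 0.0071 between them, but they were smaller than the software's error. Over the 12 settings, the median over its probes included, Adgre1 stayed above 0, between 0.052 and 0.48.

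Cd14 encodes a co-receptor that hands lipopolysaccharide to Toll-like receptor 4, and it showed the largest difference of the 10 genes. Its 1 probe had an intensity of 15287 in untreated BMDMs and 6118 after IL-4. The level went from 4.06 to 2.64, a log2 difference of -1.42 with a spot SD of 0.049, so the signal was 2.68-fold lower after IL-4. Of the 12744 genes measured on both arrays, 57 genes, or 0.447%, had a difference as low or lower, Cd14 included. It was at least 2-fold lower in all 12 settings, with log2 differences between -1.50 and -1.11. Some of these settings, such as the median over probes, could not move a gene with 1 probe.

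**Figure D3:**
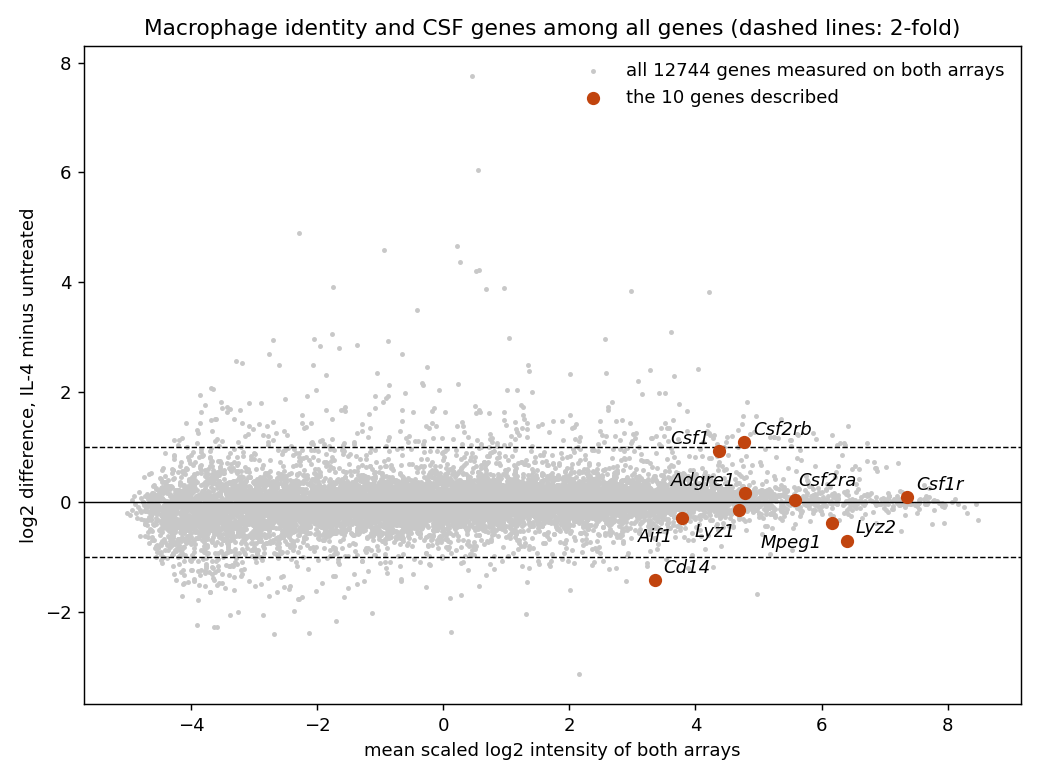
Log2 difference between IL-4-treated and untreated BMDMs against the mean level of both arrays, for 12744 genes measured on both arrays (grey) and the 10 genes described (orange, named), each at its brightest probe. Dashed lines mark 2-fold, and of the named genes only Csf2rb lies above the upper line and only Cd14 below the lower one.

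Lyz1 and Lyz2 encode lysozymes, enzymes that cleave the cell wall of bacteria. Lyz2 is the lysozyme of myeloid cells and the locus behind the LysM-Cre driver, and Lyz1 is best known from the Paneth cells of the gut. The genes are neighbours in the RefSeq annotation and arose as copies of each other. Windows of 250 bases before their start sites are shown because these neighbours share the last 50 bases while their probes differed in response. The sequences are from RefSeq on GRCm38.p6, both read on the minus strand, at chr10:117282273-117282522 for Lyz2 and chr10:117292869-117293118 for Lyz1. Capitals mark the longest run shared within these windows, their last 50 bases. The windows were cut at the start site, so whether the run goes on past it was not examined.

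Lyz2: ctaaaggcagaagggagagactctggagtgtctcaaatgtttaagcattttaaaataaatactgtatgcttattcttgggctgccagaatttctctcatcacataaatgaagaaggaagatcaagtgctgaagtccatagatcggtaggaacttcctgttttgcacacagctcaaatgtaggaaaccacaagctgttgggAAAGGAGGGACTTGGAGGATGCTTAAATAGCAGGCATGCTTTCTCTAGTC

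Lyz1: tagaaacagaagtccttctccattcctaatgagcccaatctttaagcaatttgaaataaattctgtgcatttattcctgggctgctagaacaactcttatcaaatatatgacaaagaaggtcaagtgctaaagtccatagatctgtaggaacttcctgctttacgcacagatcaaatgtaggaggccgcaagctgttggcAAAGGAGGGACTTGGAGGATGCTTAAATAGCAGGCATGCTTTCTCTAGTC

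In a global alignment of the windows 200 of 252 columns were identical, or 79.4%, with 48 mismatches and 4 gap columns. A match to AGGAAGT, a sequence of the kind bound by PU.1, lies on the opposite strand at bases 151 to 157 of both windows. This motif occurs on either strand in 7.69% of the 32851 promoter windows of that length. Of the 10 genes 6 have a window in the table, and the motif was found in Lyz1 and Lyz2 among them. A STAT6-type palindrome, TTCNNNNGAA, and a STAT5-type palindrome, TTCNNNGAA, were found in none of the 6 windows, and in 5.85% and 7.02% of all windows. These matches describe letters in a window, not sites in use.

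Lyz2 had an intensity of 98702 in untreated BMDMs and 64890 after IL-4, and its level went from 6.75 to 6.05. The log2 difference was -0.70 with a spot SD of 0.039, so the signal was 1.63-fold lower, and it was lower in all 12 settings, by values between -0.78 and -0.40. Of the genes measured on both arrays, 3.57% had a difference as low or lower. Lyz1 had an intensity of 24963 and 24026, with a log2 difference of -0.15 that was smaller than the software's error and turned to 0.06 with median scaling and 0.15 with spike-in scaling. The response of Lyz2 was below that of Lyz1 by 0.55, with a spot SD of 0.065 and a software error of 0.29 on this gap. Each gene was read by 1 probe. Since the genes arose as copies of each other, RNA of one may also reach the probe of the other, which was not tested.

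Aif1 and Mpeg1 encode proteins inside macrophages. AIF1, also named IBA1, binds calcium and actin, and MPEG1, or perforin-2, is a pore-forming protein directed at engulfed bacteria. Aif1 went from 14069 to 12249, with a log2 difference of -0.30, that is, a 1.23-fold lower signal. It was lower in 11 of 12 settings and at 0.0094 with spike-in scaling. Probe 1 of Mpeg1 went from 75152 to 61790 and probe 2 from 1908 to 1474, with log2 differences of -0.38 and -0.47. Both probes were lower after IL-4 by more than the software's error, and Mpeg1 was below 0 in all 12 settings, the median over its probes included, between -0.44 and -0.073.

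The other genes of the colony-stimulating factor pathway were read from a list of 28 ligands, receptors and signalling proteins. Of these, 22 were measured on both arrays and 6 had no flagged signal on either. At least 2-fold higher were 3 genes, none was at least 2-fold lower, and 19 lay within 2-fold, against 2.31% and 1.44% of all genes. The median log2 difference of the 22 genes was -0.05, where that of all genes was -0.01. The 3 genes were Cblb, a ubiquitin ligase that limits signalling, which went from 1269 to 3139 (log2 difference 1.21), Jak2, the kinase bound to the β chain, from 1518 to 3694 (1.18), and Mitf, a transcription factor of melanocytes and osteoclasts, from 5989 to 14391 (1.17). They were past 2-fold in all 12 settings, each of which took the brightest probe or the median over probes. The dimmer probe of Mitf alone was at 0.98, and that of Cblb at 1.005. Il34, the other ligand of CSF1R, was dim, at 235 and 320, with a log2 difference of 0.34. The ligand genes Csf2, Csf3, Il3 and Il5 stayed near background on both arrays, and the same held for Il5ra and for Sos1, an exchange factor for Ras.

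Among the other receptors, Csf3r, the receptor for G-CSF, went from 37378 to 46118, with a log2 difference of 0.20. Il3ra, the α chain for IL-3, went from 7568 to 6475, with a difference of -0.32. Stat5a and Stat5b, the transcription factors downstream of the β chain, had differences of 0.57 and -0.09, the second of which changed sign in 3 of 12 settings. Spi1, which encodes PU.1, the factor that drives expression of Csf1r, had a difference of 0.23. None of these genes was past 2-fold.

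**Figure D4:**
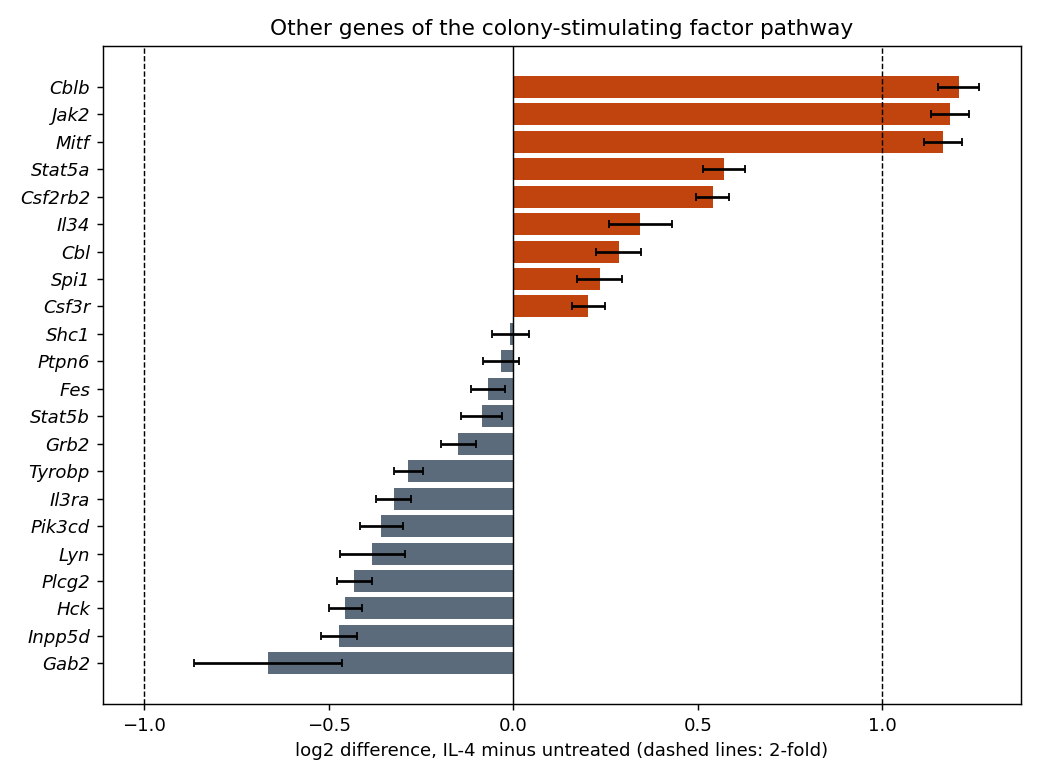
Log2 difference between IL-4-treated and untreated BMDMs for the 22 listed pathway genes measured on both arrays, with the median SD between spots for probes of similar brightness as bars. Cblb, Jak2 and Mitf pass the upper dashed line at 2-fold, and no gene passes the lower one, Gab2 being the lowest at -0.66.

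The labelled cell type was checked against 11 macrophage markers, of which 10 had a named probe and each of those 10 was well above background on both arrays. Their median log2 difference, each marker at its brightest probe, was -0.54, where that of all genes measured on both arrays was -0.01. At least 2-fold lower were Cd14, Fcgr1, the high-affinity receptor for IgG, and Mertk, a receptor for the uptake of dying cells, and no marker was at least 2-fold higher, against 1.44% and 2.31% of all genes. Of these 10 markers, 6 are among the 10 genes described above. Fcgr1 went from 2441 to 1118, with a log2 difference of -1.23, and Mertk from 2263 to 1102, with a difference of -1.14. With spike-in scaling neither reached 2-fold, at -0.92 and -0.83, and with median scaling Mertk was at -0.92. Itgam, which encodes CD11b, had a difference of -0.71 at its brightest probe and up to -0.24 at the others. With the median over its probes it was at -0.27. The median of the marker list depends on which of these values is taken, and it was not computed with the second. In bulk RNA, fewer cells of a kind and less RNA per cell cannot be told apart.

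Markers of other cells were read beside these values. All 4 markers of stroma were well above background on both arrays, with Col1a1 at 58153 and 49150, Col3a1 at 20818 and 21789, Dcn at 10912 and 10595 and Pdgfra at 784 and 1194. Their summed intensity, not scaled between the arrays here or in the sums below, was 90667 in untreated BMDMs and 82727 after IL-4. Their log2 differences lay between -0.34 and 0.51. Stromal cells are a known source of M-CSF, and their part in the signal of Csf1 was not tested. Of 5 dendritic cell markers, Flt3 and Xcr1 did not reach that flag on either array, while Itgax, which macrophages also express, went from 14856 to 26198, a log2 difference of 0.72. The other two were dim but measured on both arrays, with Zbtb46 at 48.2 and 36.1 and Ccr7 at 39.7 and 39.9, and log2 differences of -0.52 and -0.09. The summed intensity of these 5 markers was 14974 and 26304, nearly all of it from Itgax.

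Of 3 monocyte markers, 2 had a named probe. Ccr2 and Plac8 had log2 differences of -0.84 and -0.16, with a summed intensity of 4501 and 4171. Among 5 osteoclast genes, Ocstamp, which takes part in cell fusion, went from 79.2 to 659, with a log2 difference of 2.96. Ocstamp was dim in untreated BMDMs, and its difference lay between 2.02 and 3.27 over the 12 settings. The other 3 measured genes lay between -0.26 and 0.25. Calcr, the receptor for calcitonin and a defining marker of osteoclasts, was not well above background. The summed intensity of the list was 48056 and 56115, nearly all of it from Acp5 (32683 and 41757) and Ctsk (14803 and 13214). Of 6 neutrophil markers, 5 had a named probe and all of these were measured on both arrays, with a summed intensity of 4675 and 3737. The log2 differences of the granule genes Camp, Ltf, Prtn3 and Elane were -0.61, -0.54, -0.49 and -0.23, and that of Mpo, which encodes myeloperoxidase, was 0.30.

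Of 4 lymphocyte markers, the B cell genes Ms4a1 and Cd79a missed the flag on both arrays. Cd3e, a subunit of the T cell receptor complex, went from 343 to 296, and Nkg7, a gene of natural killer and cytotoxic T cells, from 1382 to 1206, both well above background on both arrays, with log2 differences of -0.31 and -0.30. The list summed to 1756 and 1523, most of it from Nkg7, whose level was above the 75th percentile of each array. Nkg7 had 2 probes, and only the brighter one, given here, was well above background on both arrays. The 6 markers of eosinophils, basophils and mast cells summed to 1195 and 1121. Among them Epx was not well above background, and Cpa3 was well above background in untreated BMDMs only, at least 3.51-fold lower after IL-4, against a signal at the detection limit. The other 4 were measured on both arrays, and their log2 differences were 0.37 for Prg2, -0.02 for Siglecf, -0.20 for Kit and -0.74 for Mcpt8. Siglecf was the brightest of them, at 772 and 817. With such bounds included there were 14073 genes with a signal on 1 array or both, of which 3.06% passed 2-fold upward and 3.35% downward. The Paneth cell gene Mmp7, read because Lyz1 is known from those cells, was at 30.8 and 42.6 and well above background after IL-4 only. Whether any of these cells contributed to the signal of the 10 genes was not tested.

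**Figure D5:**
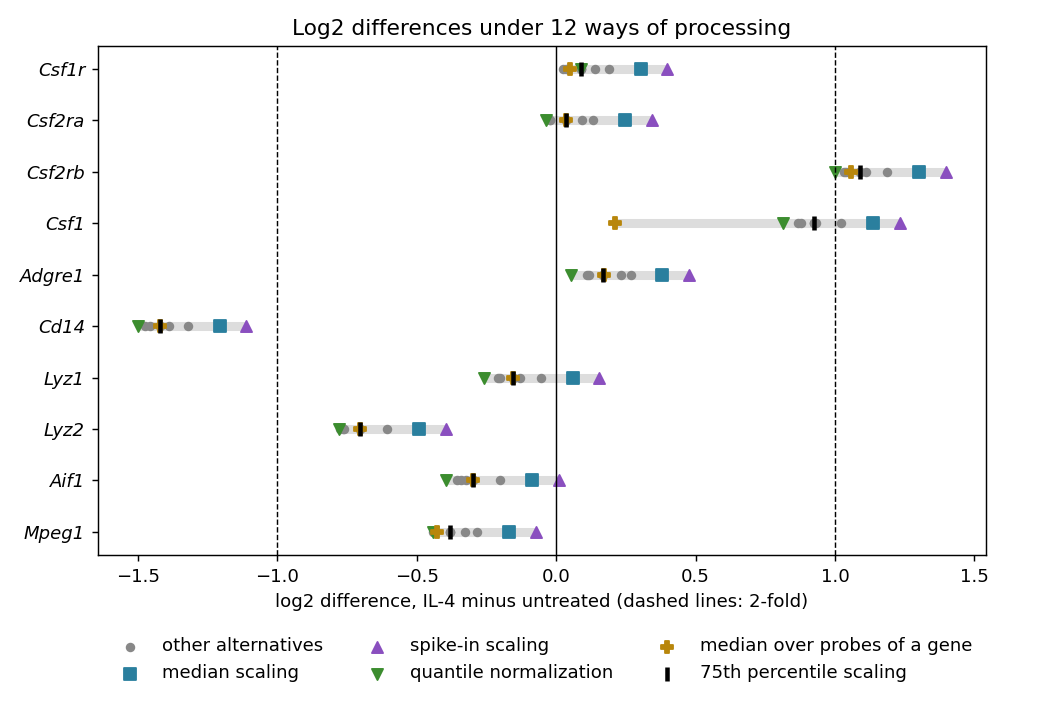
Log2 difference of the 10 genes, each at its brightest probe unless the median over probes was taken, under 12 ways of processing. Black ticks mark the 75th percentile scaling used in the text, and grey bars span all settings. Cd14 stays below -1 throughout, Csf2rb lies between 0.9998 and 1.40, Csf1 drops to 0.21 with the median over its probes, and Csf2ra, Lyz1 and Aif1 lie on both sides of 0.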

How the data were processed

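The authors hybridised RNA of each group to 1 single-colour array, and the sample labels gave the groups. The authors deposited scanner files of Feature Extraction 10.10.1.1, whose intensity values are background-subtracted and detrended on each array, with no scaling between the arrays, together with flags for each spot. A second deposited table holds log2 values as the authors processed them, with medians of 0.16 (untreated) and 0.016 (IL-4). Its scaling and centring are not stated, and for the 17 probes its differences were within 0.00057 of those from the scanner intensity.

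After removal of controls and of spots flagged as outliers, spots of the same probe were averaged on the log2 scale and each array was scaled by its 75th percentile, 9.84 for untreated and 9.94 for IL-4-treated BMDMs. Of the 43020 spots for genes, 59.8% and 57.4% were well above background. A probe was taken as well above background when most of its spots were, and a probe so flagged on 1 array only gives a bound. On the dim array it was set to the lowest signal that carried the flag, or to its own signal if that was higher. Symbols were matched by accession to RefSeq of GRCm38.p6. The array design was annotated on mm9, so coordinates are given only for the promoter windows.

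No test between groups was possible with 1 array each. The genes and lists were chosen with earlier results of these data known. Named are the 10 genes, the pathway genes past 2-fold, the other ligands and receptors with Spi1, and markers, while Sos1, Stat5a, Stat5b and Gab2 were named after their values were seen. Some marker genes are not reported here and were taken off the lists, and the counts and sums cover every gene left on a list. No gene was named for likeness of pattern, since 2 arrays give 1 difference per gene. The counting step was checked on simulated data. The work was done in Python 3.11.15 with pandas 2.3.3 and numpy 2.4.6, and in R 4.3.3 with limma 3.58.1. Alternatives were other scalings, quantile normalization, cyclic loess, normexp (offset 50) on the median pixel intensity, outlier spots kept, the median over the probes of a gene, no bounds for dim probes, and the authors' processed values. Scaling on 7 spike-in probes was added after the data were seen.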

Additional observations from a re-analysis of the deposited data

How the results depend on the processing

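Cd14 was the 1 gene at least 2-fold lower in each of the 12 settings, the main one included. The count of genes at least 2-fold higher, 1 with 75th percentile scaling, was 2 with median scaling, with no scaling and with spike-in scaling, where Csf1 joined Csf2rb, and 0 with quantile normalization, and it was 1 in the other 7 alternatives. The median log2 difference of the 10 genes, -0.06, was 0.15 with median scaling, 0.039 with no scaling, -0.15 with quantile normalization, -0.11 with cyclic loess, -0.12 with the percentile restricted to probes flagged on both arrays, and 0.25 with spike-in scaling, which was chosen after seeing the data. A constant scaling shifts every gene alike. For quantile normalization and cyclic loess the cause was not tested. Of the 10 genes 7 kept their sign in every setting, and Csf2ra, Lyz1 and Aif1 did not. Leaving out an array was not possible, because each group has 1. All 17 probes were well above background, so the filter on dim probes moved none of their values. None of these probes had outlier spots, so keeping such spots changed only the scaling. The median over probes could not move the 5 genes with 1 probe. The authors' processed values gave differences within 0.00057 of those in the text. These settings therefore add little to a count of settings that agree. Differences under 0.20 are within the software's error for a pair of spots.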
